A study of Mus musculus with 16 samples.

Results

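Cholesterol is built from acetyl-CoA by the mevalonate pathway, and the 27 genes described here encode enzymes of that pathway together with regulators and further targets of SREBP2, the transcription factor that controls it. They were taken by symbol from the expression table of mouse liver, in which 27 of 22612 genes bore one of the listed names. They fall into 8 genes of the early mevalonate steps, from acetyl-CoA to isoprenoid diphosphates, 12 genes of the late sterol steps, from squalene to cholesterol, and 7 regulators and other SREBP2 targets. Each gene's level was read in 4 diet groups. All mice were male C57BL/6, were bought at 7 weeks of age and spent 16 weeks on the diets, with 6 mice and 4 sequenced libraries per group. HK mice received the high-fat diet (58% of energy from fat) alternating every 2 weeks with a ketogenic diet, in which fat gave 90.5% of the energy. HC mice received the high-fat diet alternating every 2 weeks with chow (11% of energy from fat). H mice received the high-fat diet throughout, and N mice received chow throughout. Livers were taken after an overnight fast. Neither the last diet of HK and HC mice before collection nor the animal behind each library is given, and p-values here reflect only how these libraries vary, which may be technical in part.

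In the mevalonate pathway, acetyl-CoA units are joined and reduced to mevalonate, which is phosphorylated and decarboxylated to isoprenoid units and assembled into farnesyl diphosphate. Squalene synthase commits farnesyl diphosphate to sterols, and oxidation, ring closure, demethylation and double-bond shifts then give cholesterol. SREBP2 is held in the endoplasmic reticulum membrane by SCAP and an INSIG protein while sterols are plentiful. When membrane sterols fall, SCAP carries SREBP2 to the Golgi, where it is cut, and the freed fragment enters the nucleus and raises transcription of nearly every enzyme of the pathway. The liver is a main site of this synthesis, and fasting is known to lower it.

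Levels are given as TPM, a share of all transcripts after division by transcript length, so that genes can be compared with each other. TPM has a fixed sum, and sequencing depth cannot be read from it. Between 10575 and 11695 genes per library reached 1 TPM. The 20 highest genes of a library held 27.1% to 38.8% of its TPM, and that share was over 33% in H replicates 1 and 2 (34.3% and 33.5%) and in N replicates 2 and 3 (34.2% and 38.8%). All 8 listed hepatocyte markers were present, with summed levels of 89329 to 99026 TPM in HK livers, 106646 to 114434 in HC livers, 86210 to 122707 in H livers and 91303 to 101112 in N livers. In such bulk tissue, fewer cells of a type and less RNA per cell cannot be told apart. Of 5 adipocyte markers, 3 were under 1 TPM in every library, with Lep at 0 in all of them. Their summed level, made up mostly of Cidec and Fabp4, was 29.8 to 97.5 TPM in HK livers, 7.75 to 13.8 in HC livers, 14.5 to 36.1 in H livers and 11.1 to 17.2 in N livers. Cidec was higher in HK livers than in N and HC livers, where most sterol genes were also highest, and the part of these markers in those results was not tested.

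Many cholesterol synthesis genes had higher levels in livers of all 3 fat-containing regimens than in chow livers, with the highest means mostly in HK livers. In HK livers 21 of the 27 genes were higher than in N livers at an adjusted p under 0.05 (limma, Benjamini-Hochberg adjustment over all genes tested), against 3.67% of all 11091 genes tested that were higher by the same rule. In HC livers 9 of 27 were higher, against 0.644% of all genes. In H livers 13 of 27 were higher, against 0.575% of all genes. None of the 27 was lower in any of the 3 comparisons, and all 27 passed the filter on low values in each of them. Of all genes, 1.33% were lower in HK livers, 0.516% in HC livers and 0.484% in H livers. At shares this small, 0 of 27 is near the background. The 3 comparisons share the N libraries. The median log2 fold change of the 27 genes was 1.62 in HK livers, 0.91 in HC livers and 1.08 in H livers, while the median of all genes tested was 0.15, -0.04 and -0.05 in the same comparisons. Log2 fold changes here are differences of log2(TPM + 1), which understates the change of genes with low levels.

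**Figure D1:**
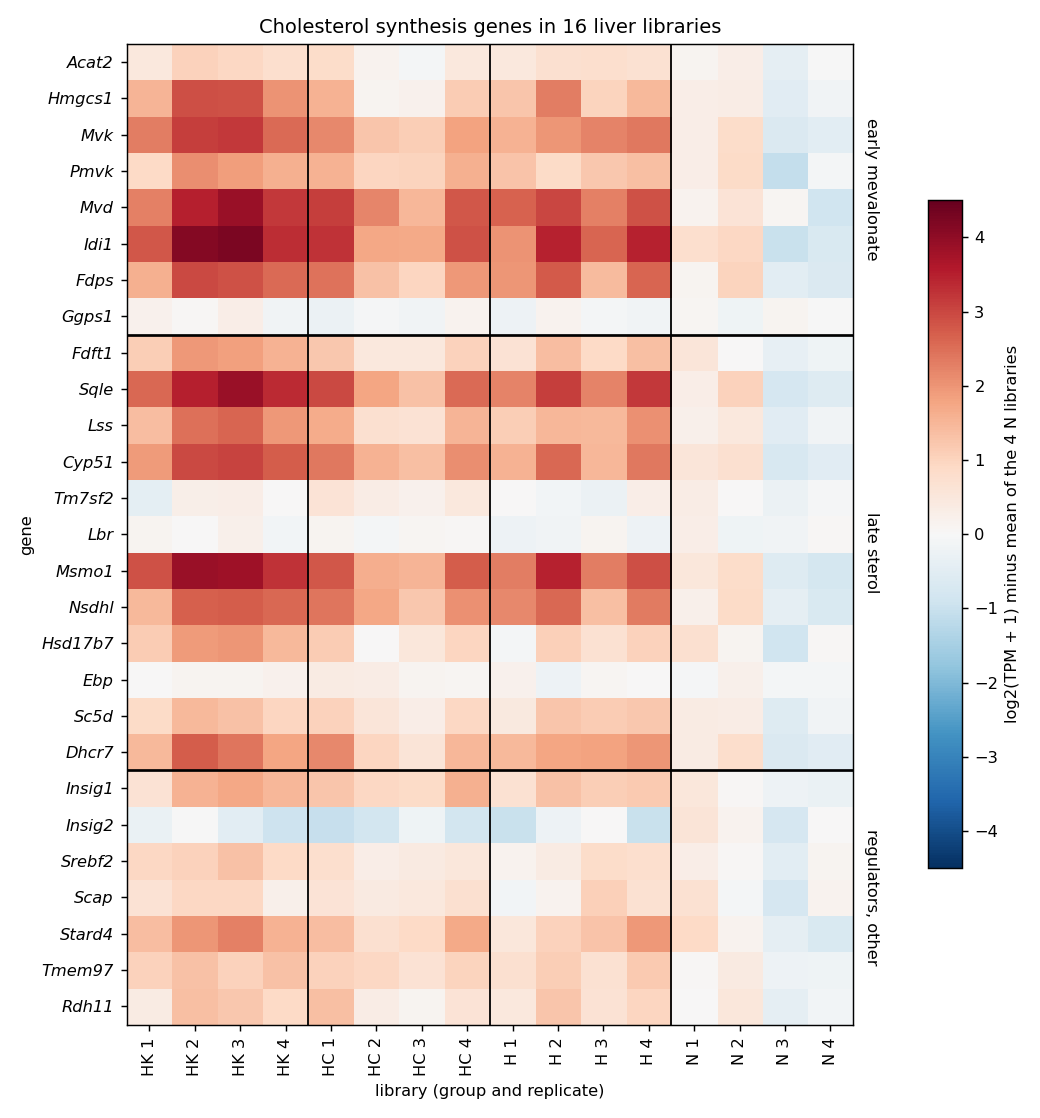
Heat map of log2(TPM + 1) in each library minus the mean of the 4 N libraries, with genes in rows by class and the 16 libraries in columns (HK, HC, H, N; replicates 1 to 4). Most enzyme genes are redder in the HK, HC and H columns than in the N columns, while the Ggps1, Tm7sf2, Lbr and Ebp rows stay pale and the Insig2 row is blue in most fat-fed libraries.

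Median changes were largest in the early class and smallest among the regulators. Early mevalonate genes had a median log2 fold change over N of 2.42 in HK livers, 1.43 in HC livers and 1.77 in H livers. The late sterol genes had medians of 1.86, 0.97 and 1.30, and the regulators and other targets had 1.05, 0.60 and 0.84, in the same order of groups. Of the 8 early genes, 7 passed in HK livers, 3 in HC livers and 5 in H livers. Of the 12 late genes, 9 passed in HK livers, 4 in HC livers and 6 in H livers. Of the 7 regulators and other targets, 5 passed in HK livers, 2 in HC livers and 2 in H livers. No test was made of one class against another.

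The summed level of the 8 early genes was 685, 1647, 1599 and 1075 TPM in HK livers, 940.0, 437, 383 and 722 in HC livers, 684, 1161, 613 and 979 in H livers and 294, 387, 172 and 204 in N livers. Every HK and H library lay above every N library, and HC replicate 3 fell just below the highest N library. The summed level of the 12 late genes averaged 1363 ± 333 TPM in HK livers, 949 ± 227 in HC livers, 1031 ± 189 in H livers and 533 ± 115 in N livers (SD, n = 4 each). Its lowest fat-fed value, 717 TPM in HC replicate 3, was above its highest N value of 634 TPM. The 7 regulators and other targets summed to 658 ± 105 TPM in HK livers, 539 ± 54.7 in HC livers, 554 ± 102 in H livers and 443 ± 130 in N livers, and the groups overlapped. These sums are set mainly by the most abundant genes of each class.

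**Figure D2:**
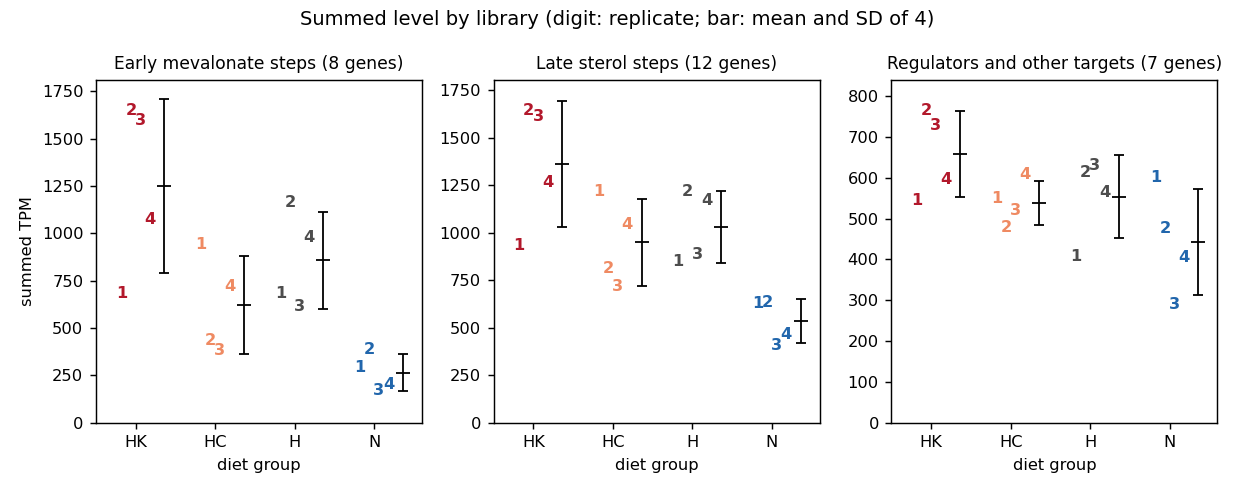
Summed TPM of the early mevalonate genes, the late sterol genes and the regulators with other targets (y axis, TPM) in HK, HC, H and N livers. Digits mark the replicate of each library and black bars the mean and SD of 4. Early sums reach 1647 TPM in HK livers and 387 TPM at most in N livers, whereas the regulator sums of the 4 groups overlap.

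Promoters of 7 starts are shown because they belong to genes that rose in all fat-fed groups (Idi1, Msmo1, Insig1), to an early enzyme that rose in HK and H livers (Hmgcs1) and to genes that passed in no comparison (Insig2, Ebp). They are the 250 bases upstream of the RefSeq start on GRCm38.p6, written 5′ to 3′ on the gene's strand, and were chosen after the levels were seen. Capitals mark the NF-Y box CCAAT on either strand and, in Hmgcs1, the sterol response element TCACNCCAC. The windows are Hmgcs1 chr13:119690101-119690350 (plus strand), Idi1 chr13:8885356-8885605 (plus), Msmo1 chr8:64733579-64733828 (minus), Insig1 chr5:28071162-28071411 (plus), Insig2 at its distal start chr1:121332590-121332839 (minus), Insig2 at its proximal start chr1:121328025-121328274 (minus) and Ebp chrX:8193513-8193762 (minus). A further RefSeq promoter of Insig2, chr1:121327679-121327928 (minus), lies downstream of the start called proximal here. It held no CCAAT and is not printed.
Hmgcs1: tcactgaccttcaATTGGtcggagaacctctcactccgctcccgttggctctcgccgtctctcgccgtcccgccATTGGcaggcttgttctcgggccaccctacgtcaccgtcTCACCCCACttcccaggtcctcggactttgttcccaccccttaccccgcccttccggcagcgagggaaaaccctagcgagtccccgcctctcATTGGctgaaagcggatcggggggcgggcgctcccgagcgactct
Idi1: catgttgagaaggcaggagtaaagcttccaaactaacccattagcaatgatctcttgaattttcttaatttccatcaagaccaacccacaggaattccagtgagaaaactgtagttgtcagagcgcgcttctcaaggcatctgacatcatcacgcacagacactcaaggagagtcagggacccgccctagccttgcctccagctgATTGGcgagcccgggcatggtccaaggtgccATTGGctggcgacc
Msmo1: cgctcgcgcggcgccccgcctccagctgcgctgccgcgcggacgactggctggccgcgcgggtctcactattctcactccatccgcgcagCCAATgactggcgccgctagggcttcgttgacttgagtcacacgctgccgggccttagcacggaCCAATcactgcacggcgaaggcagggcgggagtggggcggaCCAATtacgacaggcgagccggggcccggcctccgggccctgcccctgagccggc
Insig1: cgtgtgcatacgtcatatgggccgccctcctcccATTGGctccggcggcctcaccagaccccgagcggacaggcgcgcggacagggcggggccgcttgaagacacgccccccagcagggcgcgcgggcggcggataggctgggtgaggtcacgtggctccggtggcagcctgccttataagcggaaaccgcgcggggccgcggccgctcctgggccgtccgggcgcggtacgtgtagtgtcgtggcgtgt
Insig2 distal start: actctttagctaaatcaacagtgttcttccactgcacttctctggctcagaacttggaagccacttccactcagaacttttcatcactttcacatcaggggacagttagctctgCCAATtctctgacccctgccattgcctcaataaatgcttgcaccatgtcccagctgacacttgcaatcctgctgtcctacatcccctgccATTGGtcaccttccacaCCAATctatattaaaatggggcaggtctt
Insig2 proximal start: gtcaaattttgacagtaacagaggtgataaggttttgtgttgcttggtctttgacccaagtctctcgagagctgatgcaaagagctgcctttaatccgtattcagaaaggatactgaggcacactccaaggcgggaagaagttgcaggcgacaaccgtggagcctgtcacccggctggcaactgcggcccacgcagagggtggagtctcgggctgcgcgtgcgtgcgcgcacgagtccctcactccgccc
Ebp: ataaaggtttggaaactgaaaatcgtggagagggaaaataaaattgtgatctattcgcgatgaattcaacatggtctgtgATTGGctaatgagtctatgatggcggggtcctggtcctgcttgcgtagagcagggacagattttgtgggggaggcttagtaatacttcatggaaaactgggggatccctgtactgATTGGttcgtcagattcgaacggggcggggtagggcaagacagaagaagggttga

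RefSeq promoters were matched by symbol for 23 of the 27 genes, giving 30 promoters, and Fdps, Fdft1, Sqle and Stard4 had no entry in the table. CCAAT, the site of the factor NF-Y that works beside SREBP, was found on either strand in a promoter of 21 of the 23 genes (91.3%), against 37.5% of all 27025 genes with a promoter and 40.7% of 8698 expressed genes. It was present in Ggps1, Tm7sf2, Lbr, Ebp and Insig2, which passed in no comparison, and was not found in Acat2 and Scap. The GC box GGGCGG, bound by SP1, was found in 20 of the 23 (87.0%), against 35.4% of all genes and 63.2% of expressed genes. The E-box CACGTG was found in 6 (26.1%), against 6.86% of all genes and 10.1% of expressed genes. Of the 23 genes, TCACNCCAC was found only in Hmgcs1, as TCACCCCAC starting 137 bases before the start, and in 1.23% of all genes. A match to these letters does not show binding, and a window without them says nothing of the factor.

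The early steps begin with thiolase and HMG-CoA synthase. Hmgcs1 (ENSMUSG00000093930, chromosome 13, 119690379 to 119708260, plus strand, positions here and below on mm10), the cytosolic synthase that makes HMG-CoA, was among the most abundant transcripts of the pathway. Hmgcs1 had 215, 568, 553 and 303 TPM in HK livers, 220.0, 80.8, 84.2 and 167 in HC livers, 179.9, 369, 152 and 207 in H livers and 92.4, 93.97, 52.6 and 66.8 in N livers. HK replicates 2 and 3 were the highest of all 16, H replicate 2 was next, and HC replicates 2 and 3 lay inside the N range. Its mean was 5.36 times the N mean in HK livers, 1.81 times in HC livers and 2.97 times in H livers. The log2 fold change was 2.33 (SE 0.306, adjusted p = 0.00181) in HK livers, 0.75 (adjusted p = 0.353) in HC livers and 1.51 (adjusted p = 0.0288) in H livers, so the HC value did not pass. Acat2, the cytosolic thiolase that joins a pair of acetyl-CoA molecules, stands at the entry of the pathway. Acat2 had 81.2, 120.0, 112 and 100.1 TPM in HK livers, 105, 65.4, 55.8 and 82.5 in HC livers, 81.5, 97.6, 99.3 and 93.9 in H livers and 64.1, 72.03, 44.6 and 57.3 in N livers. It passed only against N in HK livers, with a log2 fold change of 0.79 (adjusted p = 0.026), and that call was lost without HK replicate 2, HK replicate 3 or N replicate 4.

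The next 3 enzymes among the 27 listed genes phosphorylate and decarboxylate mevalonate. Mvk, mevalonate kinase, rose in all 3 fat-fed groups. Mvk had 35.3, 61.7, 64.9 and 42.1 TPM in HK livers, 31.5, 16.3, 14.6 and 24.7 in HC livers, 20.6, 27.7, 33.6 and 37.3 in H livers and 7.99, 12.1, 3.67 and 4.27 in N livers. All fat-fed libraries were above all N libraries, and HK replicates 2 and 3 were highest. Its log2 fold change over N was 2.78 (SE 0.318, adjusted p = 0.00108) in HK livers, 1.57 (adjusted p = 0.0474) in HC livers and 2.04 (adjusted p = 0.013) in H livers. Mvd, the decarboxylase that makes isopentenyl diphosphate, had the lowest mean of the 27 genes in chow livers. Mvd had 17.7, 42.8, 56.2 and 34.6 TPM in HK livers, 32.3, 16.7, 9.83 and 26.3 in HC livers, 23.4, 30.1, 17.7 and 27.4 in H livers and 3.39, 5.01, 3.15 and 1.09 in N livers. The lowest fat-fed value, in HC replicate 3, was above the highest N value. The Mvd mean was 11.97 times the N mean in HK livers, 6.74 times in HC livers and 7.8 times in H livers, with log2 fold changes of 3.21 (adjusted p = 0.00108), 2.39 (adjusted p = 0.0142) and 2.70 (adjusted p = 0.00296). Among the genes passing in HC livers, only Mvd still passed without any 1 of the 8 libraries. Pmvk, phosphomevalonate kinase, stands between Mvk and Mvd in the pathway. Pmvk had 41.2, 97.4, 83.5 and 68.9 TPM in HK livers, 65.8, 43.6, 44.7 and 68.4 in HC livers, 55.1, 40.2, 51.7 and 57.01 in H livers and 27.2, 40.2, 9.77 and 20.7 in N livers. HK libraries were all above the N libraries, if only just for replicate 1, and N replicate 2 was level with H replicate 2. Pmvk passed in HK livers alone, with 1.62 (adjusted p = 0.0294). That call was lost without HK replicate 2, 3 or 4 or N replicate 4.

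Idi1 (ENSMUSG00000058258, chromosome 13, 8885501 to 8892451, plus strand) interconverts both isoprenoid diphosphates and had the highest ratio of means of the 27 genes in HK livers. Idi1 had 81.96, 209, 224 and 118 TPM in HK livers, 112, 38.7, 37.7 and 85.7 in HC livers, 46.99, 131, 72.2 and 132 in H livers and 19.1, 21.95, 4.98 and 6.43 in N livers. The highest N value was below every fat-fed value, and the 2 lowest N values were in replicates 3 and 4. Mean levels were 12.1 times the N mean in HK livers, 5.22 times in HC livers and 7.3 times in H livers. The log2 fold changes were 3.62 (SE 0.451, adjusted p = 0.00139) in HK livers, 2.38 (adjusted p = 0.037) in HC livers and 2.89 (adjusted p = 0.0144) in H livers. Fdps, farnesyl diphosphate synthase, had a mean close to that of Hmgcs1 in HK livers. Fdps had 207, 544, 499 and 403 TPM in HK livers, 369.8, 171, 132 and 262 in HC livers, 272, 459.7, 182 and 420.3 in H livers and 74.5, 137, 48.01 and 42.5 in N livers. HC replicate 3 was just below N replicate 2, and the HK and H libraries were all above the N libraries. It passed in HK livers with 2.50 (adjusted p = 0.00369) and in H livers with 2.19 (adjusted p = 0.0194), and in HC livers had 1.66 (adjusted p = 0.065). Ggps1, which extends farnesyl to geranylgeranyl diphosphate for protein prenylation, passed in no comparison. Ggps1 had 5.72, 5.07, 6.2 and 4.24 TPM in HK livers, 3.96, 4.7, 4.29 and 5.65 in HC livers, 4.01, 5.64, 4.59 and 4.29 in H livers and 5.28, 4.11, 5.44 and 4.86 in N livers. All groups overlapped, and its log2 fold change over N was 0.09 (adjusted p = 0.774) in HK livers, -0.07 (adjusted p = 0.929) in HC livers and -0.07 (adjusted p = 0.952) in H livers.

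**Figure D3:**
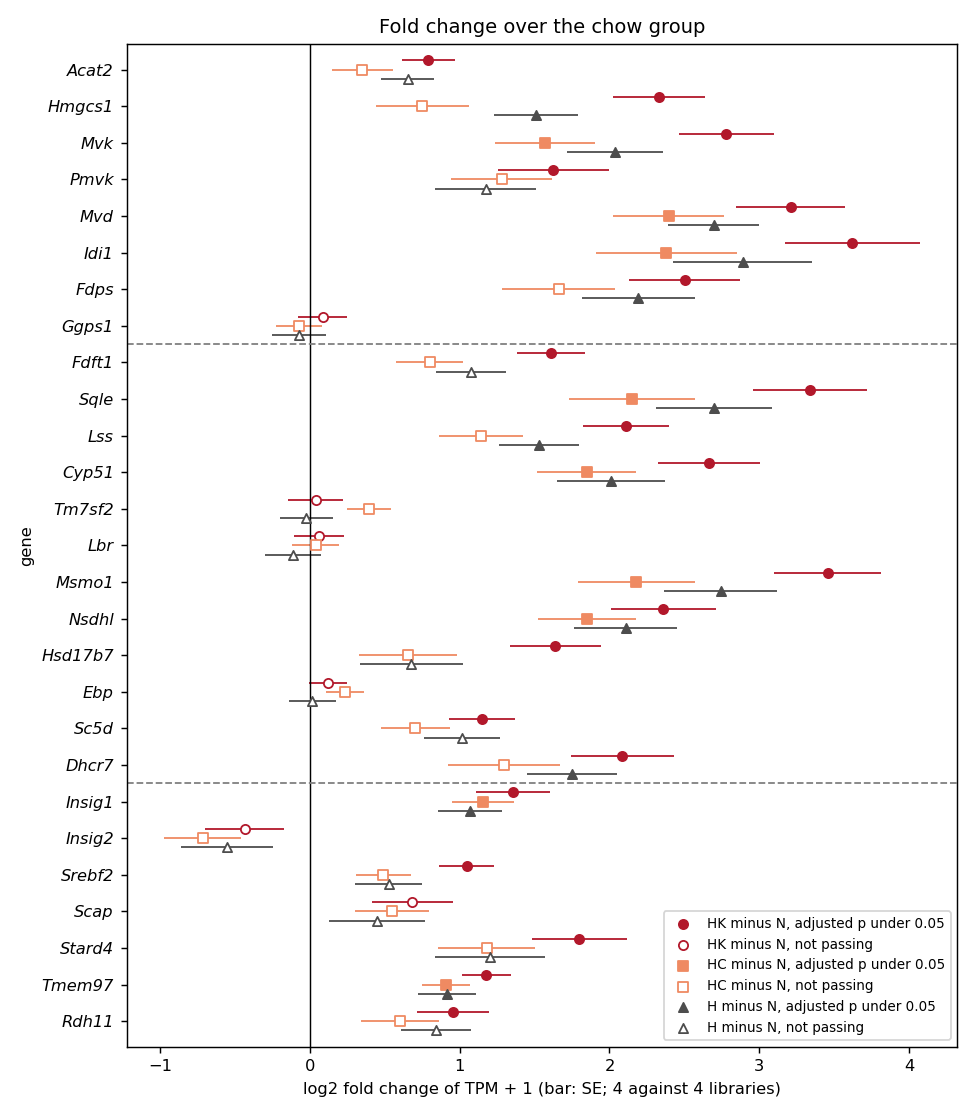
Log2 fold change of TPM + 1 over the N libraries for the 27 genes, in HK, HC and H livers, with the SE as horizontal bars (4 against 4 libraries). Filled symbols have an adjusted p under 0.05, and dashed lines part early genes, late genes and regulators. The HK symbols reach 3.62 (Idi1), and Ggps1, Tm7sf2, Lbr and Ebp lie between -0.11 and 0.40 in all 3 comparisons.

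The late steps begin where farnesyl diphosphate is committed to sterols. Fdft1 encodes squalene synthase. Fdft1 had 88.8, 161, 149 and 121 TPM in HK livers, 95.1, 57.5, 57.1 and 85.8 in HC livers, 65.5, 109, 77.6 and 105 in H livers and 59.8, 41.9, 31.3 and 35.6 in N livers. The lowest HK value was above the highest N value, while HC replicates 2 and 3 were below N replicate 1. It passed in HK livers alone, with 1.61 (adjusted p = 0.00255). Its exons share 774 bases with Ctsb, a cathepsin gene on the opposite strand with a mean of 171 TPM, and whether counting used strand is not stated in the sources used here. Sqle (ENSMUSG00000022351, chromosome 15, 59315077 to 59331192, plus strand), squalene epoxidase, is an oxygen-dependent control point. Sqle had 38.2, 72.6, 95.9 and 65.9 TPM in HK livers, 49.9, 21.2, 15.2 and 36.9 in HC livers, 29.7, 55.8, 29.6 and 58.4 in H livers and 6.99, 12.2, 2.89 and 3.36 in N livers. All fat-fed libraries were above the 4 N libraries. The mean was 10.7 times the N mean in HK livers, 4.84 times in HC livers and 6.82 times in H livers, and the log2 fold changes were 3.34 (SE 0.378, adjusted p = 0.00108), 2.15 (adjusted p = 0.0345) and 2.70 (adjusted p = 0.00784).

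Lss closes the sterol rings, and Cyp51 removes the first methyl group of lanosterol. Lss had 15.2, 33.5, 37.1 and 23.02 TPM in HK livers, 18.9, 9.22, 8.71 and 16.8 in HC livers, 12.4, 16.5, 15.96 and 25.01 in H livers and 6.24, 7.59, 3.33 and 4.5 in N livers. HC replicates 2 and 3 lay a little above the highest N value, and all HK libraries were well above it. Lss passed in HK livers with 2.11 (adjusted p = 0.00216) and in H livers with 1.53 (adjusted p = 0.0198), and in HC livers had 1.14 (adjusted p = 0.0879). These gene levels include Lss-204, a transcript that keeps an intron and has no coding bases. It held 47.1% of Lss on average over all libraries. The coding Lss-201 held 42.1%, with 12.4 ± 5.52 TPM in HK livers, 4.94 ± 3.23 in HC livers, 7.39 ± 5.49 in H livers and 2.94 ± 2.17 in N livers. Cyp51 had 75.2, 157, 163 and 130.0 TPM in HK livers, 103, 58.8, 50.6 and 83.4 in HC livers, 58.6, 119.8, 56.03 and 102 in H livers and 27.97, 31.8, 11.1 and 12.9 in N livers. No N library reached the lowest fat-fed value, that of HC replicate 3. Cyp51 rose in all 3 groups, with 2.66 (adjusted p = 0.00162) in HK livers, 1.85 (adjusted p = 0.0253) in HC livers and 2.01 (adjusted p = 0.0232) in H livers.

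Msmo1 (ENSMUSG00000031604, chromosome 8, 64718139 to 64733792, minus strand), the methylsterol monooxygenase that starts removal of the other two methyl groups, had the lowest adjusted p of the 27 genes in HK livers. Msmo1 had 202, 417, 395 and 268 TPM in HK livers, 196, 87.2, 80.5 and 184 in HC livers, 136, 309, 138 and 208 in H livers and 39.2, 49.01, 17.97 and 15.3 in N livers. The highest N library was well below the lowest fat-fed library. Means were 320.5 ± 103 TPM in HK livers, 137 ± 61.6 in HC livers, 198 ± 81.3 in H livers and 30.4 ± 16.4 in N livers (SD, n = 4 each). The log2 fold changes over N were 3.46 (SE 0.357, adjusted p = 5.47e-04), 2.18 (adjusted p = 0.0254) and 2.74 (adjusted p = 0.00667). Nsdhl and Hsd17b7, a dehydrogenase and a reductase, complete the demethylation that Msmo1 begins. Nsdhl had 38.3, 91.1, 93.7 and 85.6 TPM in HK livers, 75.4, 46.5, 32.5 and 58.6 in HC livers, 63.9, 84.7, 35.8 and 71.1 in H livers and 15.7, 25.2, 9.84 and 8.02 in N livers. HK replicate 1 was far below the other HK libraries and still above the N libraries. Nsdhl rose in HK livers (2.36, adjusted p = 0.00369), in HC livers (1.85, adjusted p = 0.0253) and in H livers (2.11, adjusted p = 0.0151). Hsd17b7 had 32.3, 55.98, 58.7 and 40.2 TPM in HK livers, 31.9, 13.9, 20.002 and 28.5 in HC livers, 13.05, 30.02, 23.04 and 29.9 in H livers and 23.7, 15.1, 7.06 and 14.5 in N livers. Its HC and H values overlapped those of N, and it passed in HK livers alone, with 1.64 (adjusted p = 0.0117), a call that was lost without HK replicate 2.

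The final steps move the ring double bonds and saturate them. Sc5d, the desaturase that makes 7-dehydrocholesterol, was one of the more abundant late enzymes. Sc5d had 132, 197, 180.2 and 141 TPM in HK livers, 149, 106, 88.1 and 138 in HC livers, 98.2, 172, 161 and 168 in H livers and 94.2, 91.2, 47.7 and 64.9 in N livers. HK libraries were above all N libraries, whereas HC replicate 3 was below the 2 highest N values. Sc5d passed in HK livers alone (1.15, adjusted p = 0.0138), and not without HK replicate 2 or 3. Dhcr7, the reductase that turns 7-dehydrocholesterol into cholesterol, passed in HK and H livers. Dhcr7 had 44.6, 106, 85.4 and 55.3 TPM in HK livers, 73.1, 30.8, 23.4 and 45.5 in HC livers, 43.7, 55.3, 56.2 and 64.5 in H livers and 20.4, 27.4, 9.37 and 10.6 in N livers. All HK and H libraries were above the N libraries, and HC replicate 3 was not. Its log2 fold change was 2.09 (adjusted p = 0.00656) in HK livers and 1.75 (adjusted p = 0.0194) in H livers, and in HC livers it was 1.30 (adjusted p = 0.154).

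Tm7sf2, Lbr and Ebp, also late-step genes, passed in no comparison. Tm7sf2 and Lbr encode the enzymes with sterol C14-reductase activity, and Lbr also anchors chromatin at the nuclear envelope. Tm7sf2 had 102, 168, 171 and 143 TPM in HK livers, 212, 174, 160.3 and 193 in HC livers, 140.0, 127, 117 and 170.5 in H livers and 174, 139, 115 and 135 in N livers. The groups overlapped, and the HC mean was the highest. Tm7sf2 shares 532 exon bases with Vps51 on the same strand. Lbr had 4.49, 4.11, 4.84 and 3.66 TPM in HK livers, 4.42, 3.73, 4.32 and 4.26 in HC livers, 3.33, 3.56, 4.46 and 3.34 in H livers and 5.13, 3.4, 3.54 and 4.23 in N livers. No Lbr value was above 5.13 TPM, and no group stood apart. Ebp, the isomerase that shifts the ring double bond, ranged over 162 to 186 TPM in HK livers, 171 to 209.9 in HC livers, 137 to 186 in H livers and 149.8 to 190.2 in N livers. Log2 fold changes of HK over N livers were 0.04 (adjusted p = 0.917) for Tm7sf2, 0.06 (adjusted p = 0.841) for Lbr and 0.12 (adjusted p = 0.571) for Ebp. Against N, the HC values were 0.40, 0.04 and 0.23 and the H values -0.02, -0.11 and 0.02, each with an adjusted p over 0.05. With quantile normalization, Ggps1, Tm7sf2 and Lbr were below 0 in HK livers, where the median of all genes was 0.15 as deposited and -0.01 after it.

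Among the regulators, the INSIG genes differed. Insig1, itself an SREBP target, encodes an endoplasmic reticulum protein that retains SCAP. Insig1 had 118, 222, 254 and 211 TPM in HK livers, 178, 145, 136 and 228 in HC livers, 121, 188, 163 and 170.3 in H livers and 106, 77.9, 63.3 and 60.3 in N livers. All fat-fed libraries were above all N libraries. Insig1 rose in HK livers (1.36, SE 0.247, adjusted p = 0.0105), in HC livers (1.15, adjusted p = 0.0253) and in H livers (1.07, adjusted p = 0.0402). The HC call was lost without HC replicate 1, 2 or 4 or N replicate 2, 3 or 4. The H call was lost without H replicate 2, 3 or 4 or N replicate 2, 3 or 4. Insig2, the second retention protein, is known in rodent liver for a transcript that rises on fasting and falls with insulin. Insig2 had 176, 215, 157 and 114 TPM in HK livers, 107, 124, 189 and 124 in HC livers, 109, 187, 223 and 107 in H livers and 325, 243, 129.7 and 222 in N livers. N replicates 1 and 2 were the highest of all 16, and N replicate 3 lay inside the fat-fed range. Its mean was 0.72 times the N mean in HK livers, 0.591 times in HC livers and 0.68 times in H livers. None of these differences passed, with log2 fold changes of -0.43 (SE 0.264, adjusted p = 0.348), -0.71 (SE 0.256, adjusted p = 0.259) and -0.55 (SE 0.308, adjusted p = 0.537).

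Srebf2, which encodes SREBP2 and responds to its own protein, passed against N in HK livers alone. Srebf2 had 26.97, 29.5, 35.7 and 26.4 TPM in HK livers, 23.97, 16.98, 18.3 and 20.2 in HC livers, 15.5, 18.2, 24.8 and 23.9 in H livers and 17, 14.4, 9.51 and 15.2 in N livers. HK libraries were above all HC, H and N libraries. Its mean was 29.6 ± 4.25 TPM in HK livers, 19.9 ± 3.04 in HC livers, 20.6 ± 4.49 in H livers and 14.02 ± 3.2 in N livers. Its log2 fold change was 1.05 (SE 0.186, adjusted p = 0.00965) in HK livers, 0.49 (adjusted p = 0.286) in HC livers and 0.53 (adjusted p = 0.379) in H livers. Scap, the escort protein, overlapped between all groups. Scap had 55.2, 66.98, 66.7 and 40.2 TPM in HK livers, 52.99, 46.2, 47.8 and 57.8 in HC livers, 31.4, 38.7, 74.5 and 55.9 in H livers and 56.5, 32.3, 20.2 and 38.2 in N livers. H replicate 3 was highest and N replicate 3 lowest. Its log2 fold change over N was 0.69 (adjusted p = 0.175) in HK livers, 0.55 (adjusted p = 0.394) in HC livers and 0.45 (adjusted p = 0.678) in H livers.

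Stard4, Tmem97 and Rdh11 are SREBP targets outside the synthetic chain. Stard4 encodes a soluble sterol carrier. Stard4 had 34.2, 52.7, 63.4 and 39.3 TPM in HK livers, 34.6, 21.3, 24.3 and 43.3 in HC livers, 18.3, 26.8, 32.3 and 51.8 in H livers and 24.4, 14.2, 9.28 and 7.42 in N livers. HK libraries were above all N libraries, and N replicate 1 overlapped the HC and H values. It passed in HK livers alone (1.80, adjusted p = 0.00955). Tmem97, which binds the late endosomal cholesterol transporter NPC1, was higher in all 3 groups. Tmem97 had 115, 139.6, 115 and 137 TPM in HK livers, 115, 105, 87.99 and 112 in HC livers, 91.98, 119, 89.1 and 125 in H livers and 57.1, 72.6, 46.5 and 48.1 in N livers. The highest N value was below every fat-fed value, with log2 fold changes of 1.18 (adjusted p = 0.00219) in HK livers, 0.91 (adjusted p = 0.0246) in HC livers and 0.92 (adjusted p = 0.0499) in H livers. The H call was lost without any 1 of the 8 libraries. Rdh11, a retinal reductase, passed in HK livers alone with 0.96 (adjusted p = 0.0453). Rdh11 had 19, 38.3, 35.1 and 28.04 TPM in HK livers, 38.3, 18.5, 16.03 and 22.7 in HC livers, 20.7, 35.8, 23.6 and 29.6 in H livers and 14.7, 21.1, 10.7 and 13.4 in N livers. HK replicate 1 was below N replicate 2, and the call was lost without HK replicate 2, 3 or 4 or N replicate 3 or 4.

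**Figure D4:**
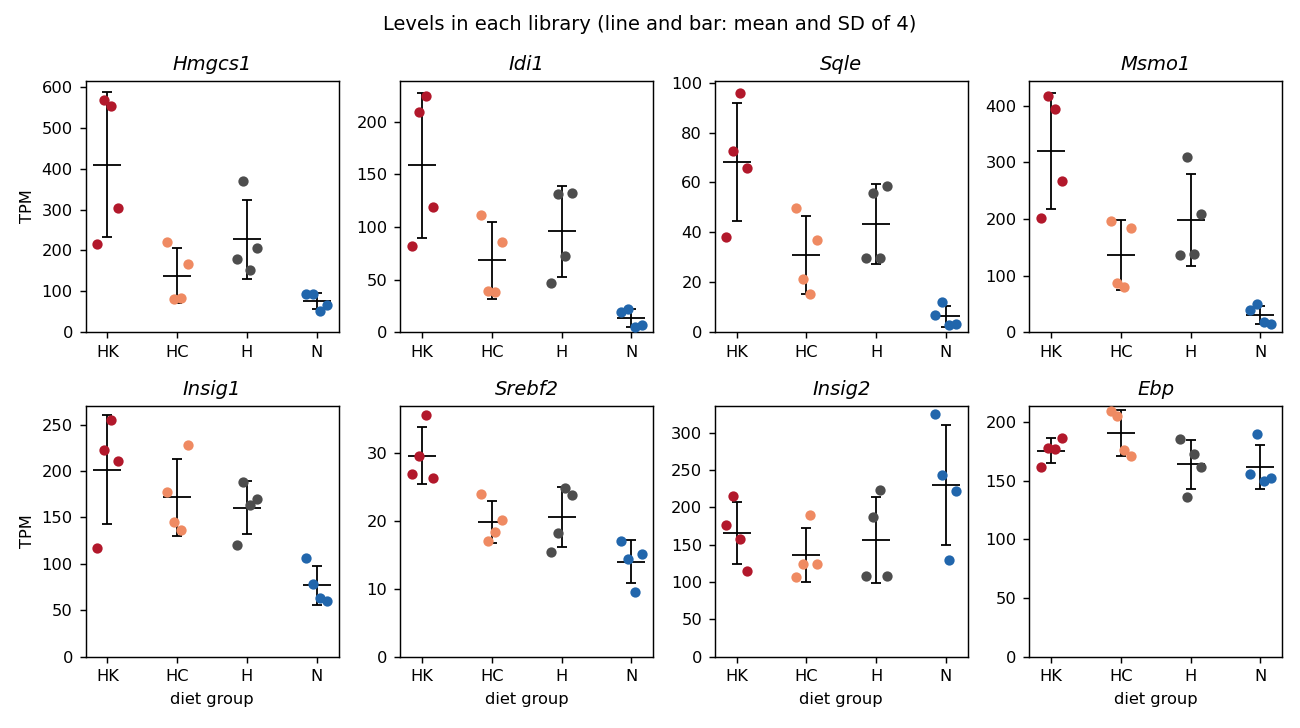
TPM (y axis, starting at 0) of 8 genes in each library of the HK, HC, H and N groups, with the mean and SD of 4 as a line and bar. Idi1, Sqle, Msmo1 and Insig1 show no overlap of N with the fat-fed groups, Hmgcs1 overlaps in HC alone, and Insig2 and Ebp overlap throughout.

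Which genes passed differed between regimens. Against N, 9 genes passed in all 3 comparisons (Mvk, Mvd, Idi1, Sqle, Cyp51, Msmo1, Nsdhl, Insig1 and Tmem97). A further 4 passed in HK and H livers and not in HC livers (Hmgcs1, Fdps, Lss and Dhcr7), and 8 passed in HK livers alone (Acat2, Pmvk, Fdft1, Hsd17b7, Sc5d, Srebf2, Stard4 and Rdh11). Ggps1, Tm7sf2, Lbr, Ebp, Insig2 and Scap passed in none. Passing in one regimen and not in another does not show a difference between them. The shares of all genes with these patterns were not counted. The 3 comparisons share the N libraries, and more of all genes were higher in HK livers (3.67%) than in HC livers (0.644%) or H livers (0.575%). Libraries of the groups were fully separated, all 4 above all 4 N libraries, for 20 genes in HK livers, 11 in HC livers and 17 in H livers, against 9.34%, 2.94% and 2.49% of all genes tested. The HK mean was the highest of the 4 groups for 24 of the 27 genes, against 58.6% of all 11450 genes of at least 1 TPM in at least 4 libraries, and the N mean the lowest for 23, against 27.9%. These orders are of TPM as deposited.

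The counts in HC and H livers fell without some single libraries, and so did those of all genes tested that were higher, given in brackets. The H count was 13 with all libraries (63 of 10960). It was 3 without H replicate 2 (21 of 10862) and 3 without H replicate 4 (21 of 10814). It was 7 without N replicate 3 (35 of 10889) and 3 without N replicate 4 (21 of 10846). Without the 4 libraries over 33% it was 3 (14 of 10377). In H livers, only Msmo1, Mvd and Sqle passed whichever single library was left out. The HC count was 9 with all libraries (70 of 10862). It became 1 without HC replicate 1 (17 of 10750), 2 without HC replicate 2 (24 of 10791) and 1 without HC replicate 4 (29 of 10790). It became 3 without N replicate 3 (47 of 10785) and 1 without N replicate 4 (26 of 10747). The HK count of 21 stayed between 16 and 22 without any 1 library, and 16 of its genes passed each time. Of all genes, 132 (without HK replicate 2) to 1322 (without N replicate 1) were higher in those fits. Without N replicates 2 and 3, the libraries over 33% in that comparison, 14 genes passed in HK livers (132 of 10931). The median log2 fold change of the 27 genes kept its sign without any 1 library, ranging over 1.34 to 1.80 in HK livers, 0.83 to 1.04 in HC livers and 0.95 to 1.26 in H livers.

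The comparison of both alternating regimens asked whether ketogenic or chow intervals in a high-fat diet left different levels. HK livers had more of 4 of the 27 genes than HC livers, against 4.31% of all 11002 genes tested that were higher, and none was lower, against 0.727% of all genes. These were Hmgcs1, whose log2 fold change was 1.58 (SE 0.378, adjusted p = 0.0419), Mvk with 1.21 (SE 0.255, adjusted p = 0.0266), Msmo1 with 1.28 (SE 0.323, adjusted p = 0.0484) and Srebf2 with 0.56 (SE 0.132, adjusted p = 0.0409). The mean of Hmgcs1 was 409.8 ± 178 TPM in HK livers and 138 ± 67.7 in HC livers (SD, n = 4 each), and HC replicate 1 was above HK replicate 1. For Srebf2 the lowest HK value was above the highest HC value. Summed levels of some cell type markers also did not overlap between these groups. The summed level of 5 sinusoidal endothelial markers was 115 to 184 TPM in HK livers and 74.1 to 110.1 in HC livers. None of them was at 0 in all libraries, and Clec4g passed as higher. The summed hepatocyte markers were lower in every HK library than in any HC library, and none of the 8 passed by itself. Of all single genes tested, 14.7% had every HK library above every HC library and 2.06% had every one below. The part of these cell type markers in the sterol results was not tested. In all, 5 genes were fully separated, against 14.7% of all genes, and 16 of 27 were higher at an unadjusted p under 0.05, against 25.7% of all genes. The median log2 fold change was 0.56 over the 27 genes, 0.83 over the early genes, 0.80 over the late genes and 0.28 over the regulators, and 0.19 over all genes tested.

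This count also moved with single libraries, as did that of all genes tested that were higher, given in brackets (474 of 11002 with all libraries). It was 7 without HK replicate 1 (263 of 10817) and 7 without HC replicate 1 (288 of 10917). Without HK replicate 4 it was 6 (2331 of 10917), which is near the share of all genes. Without HC replicate 4 it was 2 (276 of 10936). It was 0 without HK replicate 2 (131 of 10863) or HK replicate 3 (223 of 10852). It was also 0 without HC replicate 2 (139 of 10937) or HC replicate 3 (173 of 10933). With quantile normalization the count was 0 (158 of 11002). After rescaling without mitochondrial genes and the 20 highest genes it was 1 (240 of 11485). The share of all genes above 0 was 79.5% as deposited and 49.4% with quantile normalization, while 25 and 22 of the 27 genes were above 0.

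HK livers were compared with H livers to ask what ketogenic intervals added to or took from a continuous high-fat diet. None of the 27 genes passed in limma, against 0.009% of 11108 genes that were higher and 0.027% that were lower, so that hardly any gene passed at all. Without adjustment, 7 genes had a p under 0.05, all higher in HK livers (Hmgcs1, Mvk, Fdft1, Cyp51, Msmo1, Hsd17b7 and Srebf2), against 9.11% of all genes. The lowest adjusted p was that of Hsd17b7, whose log2 fold change was 0.96 (SE 0.271, adjusted p = 0.416). Hmgcs1 had 0.82 (SE 0.337, adjusted p = 0.486) and Srebf2 0.52 (SE 0.183, adjusted p = 0.486). All 27 log2 fold changes were above 0, as were 83.03% of all genes, and with quantile normalization 19 were above 0, against 51.6% of all genes. The median over the 27 genes was 0.33, and that over all genes was 0.21 as deposited and 0.01 with quantile normalization. Every HK library was above every H library for 2 genes, against 6.3% of all genes.

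HC livers were compared with H livers to ask what chow intervals changed. None of the 27 genes passed in limma, against 0.0275% of 10899 genes that were higher and 0.0184% that were lower. Without adjustment, Tm7sf2 was higher in HC livers (0.42, SE 0.152, adjusted p = 1) and Hmgcs1 lower (-0.76, SE 0.343, adjusted p = 1), which is near the background, since 1.88% of all genes were higher and 2.27% lower at an unadjusted p under 0.05. Of the 27 log2 fold changes, 7 were above 0, against 54.7% of all genes, and the median was -0.24. No gene of the 27 had every HC library above every H library, against 1.78% of all genes. The early genes had a median of -0.38, the late genes -0.27 and the regulators -0.02. Idi1 averaged 68.4 ± 36.5 TPM in HC livers and 95.7 ± 42.9 in H livers, Sqle 30.8 ± 15.7 and 43.4 ± 15.9, and Msmo1 137 ± 61.6 and 198 ± 81.3, with spreads that overlapped each time.

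**Figure D5:**
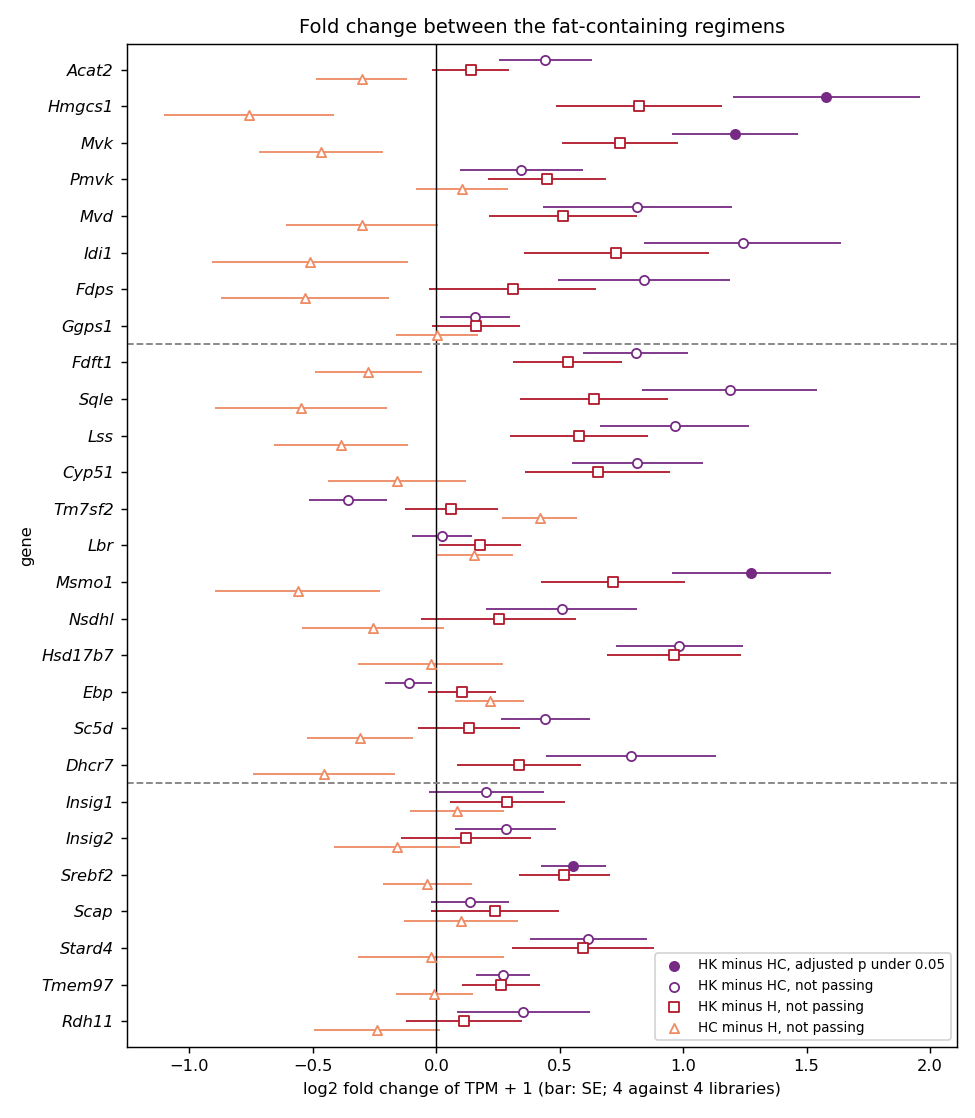
Log2 fold change of TPM + 1 between the fat-containing regimens for the 27 genes (HK minus HC, HK minus H and HC minus H), with the SE as horizontal bars (4 against 4 libraries). Filled symbols, for Hmgcs1, Mvk, Msmo1 and Srebf2 in HK minus HC, have an adjusted p under 0.05. HK minus HC values lie mostly to the right of 0 and HC minus H values mostly to the left.

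Some libraries were lowest or highest of their group for many of the 27 genes, and are set here against all 11450 genes of at least 1 TPM in at least 4 libraries. HK replicate 1 was the lowest HK library for 22 of the 27 genes, against 9.75% of all genes. HC replicate 1 was the highest HC library for 21, against 36.7% of all genes, and HC replicate 3 the lowest for 17, against 24.3%. N replicate 2 was the highest N library for 16, against 15.6% of all genes. H replicate 1 was the lowest H library for 16, against 53.1%, and N replicate 3 the lowest N library for 19, against 59.9%, both nearer to the share of all genes. No H library was highest for more than 12 of the 27. The summed level of all 27 genes was 2163, 4052, 3939 and 2934 TPM in HK livers, 2708, 1729, 1620.0 and 2375 in HC livers, 1941, 2994, 2131 and 2712 in H livers and 1523, 1497, 870.3 and 1071 in N livers. HK replicate 1 was thus below 2 HC and 2 H libraries. N replicate 3, the lowest, was also the library with the highest share of TPM in 20 genes (38.8%). HK replicate 1, the lowest HK library, had the highest summed adipocyte (97.5 TPM) and cholangiocyte markers (176 TPM) of all 16. The part of these in the results was not tested.

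Transcript tables allowed a look at isoform use. The 27 genes had 153 transcripts, and 32 transcripts of 12 genes, each holding at least 5% of its gene, were tested in the 6 comparisons. None of 192 exact two-sided permutation tests of transcript shares passed adjustment. The smallest exact p that 4 against 4 libraries allow is 0.0286, 7 tests had an unadjusted p under 0.05, and the lowest adjusted p was 0.784. Over 192 tests a p of that size cannot pass adjustment unless a large part of the tests reach it. The lack of passing tests therefore does not show that isoform use was unchanged. Insig2 has a proximal first exon in Insig2-201 (5′ end at chromosome 1, 121328024) and a distal one in Insig2-202 (5′ end 121332589), which encode the same length of protein. Insig2-201 held 79.3% of Insig2 in HK livers, 79.5% in HC livers, 81.4% in H livers and 81.4% in N livers. Fdps-201 held 26.02 ± 4.49% of Fdps in HK livers, 29.4 ± 4.95% in HC livers, 61.99 ± 23.7% in H livers and 52.7 ± 26.1% in N livers (SD, n = 4 each), with single values of up to 96.01% in H replicate 2.

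Genes around the pathway were counted against the shares of all genes given above, which were 3.67% higher in HK than in N livers and 4.31% higher in HK than in HC livers, and with lists this short 1 passing gene is not set apart from them. Of 12 genes that sense sterols or process SREBP, Erlin1, an endoplasmic reticulum protein that restrains SREBP, was the one that passed. It rose in HK livers to 25.9 ± 4.52 TPM, against 12.8 ± 3.30 in N livers (log2 fold change 0.98, adjusted p = 0.0175). Its mean was 19.6 ± 2.25 TPM in HC livers and 18.5 ± 5.68 in H livers, and Erlin2 and Nfya passed nowhere. Of 5 electron donors, Por, the reductase that feeds Cyp51 and Sqle, rose to 322 ± 41.1 TPM in HK livers, against 192 ± 27.2 in N livers (0.74, adjusted p = 0.0151). The Por mean was 295 ± 75.6 TPM in HC livers and 202 ± 84.8 in H livers. Cyb5r3 was lower in HK livers (189 ± 23.7 TPM) than in HC livers (279 ± 30.02; -0.57, adjusted p = 0.021), and Cyb5b and Pgrmc1 passed nowhere. Of 15 genes of the non-sterol isoprenoid branch, Dolk, dolichol kinase, was higher in HK livers (12.7 ± 0.405 TPM) than in HC livers (9.31 ± 0.987; 0.41, adjusted p = 0.048), and no other passed.

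Of 16 tested genes of sterol removal, Cyp7a1, the entry enzyme of bile acid synthesis, passed as higher than in N livers in all 3 fat-fed groups. Cyp8b1 and Cyp7b1 passed in HK livers alone, though their HC and H means were also above the N mean. None was lower against N. Cyp7a1 averaged 67.4 ± 31.4 TPM in HK livers, 52.5 ± 38.7 in HC livers, 51.6 ± 36.5 in H livers and 3.98 ± 1.20 in N livers. Cyp8b1, the hydroxylase of the cholic acid branch, averaged 576 ± 89.4 TPM in HK livers and 233 ± 43.4 in N livers (log2 fold change 1.31, adjusted p = 0.00162). Cyp27a1, a mitochondrial sterol hydroxylase, was lower in HK livers (314 ± 31.8 TPM) than in HC livers (461 ± 45.3; -0.55, adjusted p = 0.0158). Of 15 tested genes of fatty acid synthesis, which SREBP1 serves, 4 were higher in HK than in N livers (Srebf1, Fads1, Fads2 and Aacs) and Scd1 was lower. Aacs, which activates acetoacetate for lipid synthesis, averaged 19.03 ± 5.42 TPM in HK livers and 4.28 ± 1.83 in N livers (1.94, adjusted p = 0.00185). The Aacs mean was 9.91 ± 6.39 TPM in HC livers and 16.6 ± 12.6 in H livers. Scd1, the main liver desaturase, averaged 28.3 ± 25.8 TPM in HK livers and 1894 ± 863 in N livers (-6.24, adjusted p = 1.35e-04). Fasn alone passed in H livers, as higher than in N livers, and no gene of this list passed in HC livers against N.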

How the data were processed

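Liver RNA was sequenced in 16 libraries. Per the series' design text, RNA with an integrity number over 8 was prepared with a NEBNext Ultra kit, reads were aligned with HISAT2 to mm10, FPKM were calculated with RSEM 1.1.17 on Ensembl release 96, and the authors compared groups with edgeR 3.14.0. The values deposited by the authors are TPM, since each column has the same fixed sum; how they were converted is not given in the sources used here. No counts were used, and the limma test was applied to the deposited TPM.

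From the deposited TPM, log2(TPM + 1) was fitted with limma 3.58.1 (R 4.3.3), with an intensity trend and no covariates, to the 8 libraries of each of 6 comparisons, over genes of at least 1 TPM in at least 4 of them. P-values were adjusted by Benjamini-Hochberg over all genes tested, and a gene passed at an adjusted p under 0.05 with no fold limit. The test was checked on simulated data. Positions come from GENCODE vM21, promoters from RefSeq (GRCm38.p6). Transcript shares were compared by exact permutation tests. The members and lists were chosen with earlier results of these data known. Values in every library are given for genes that pass in at least 1 comparison and for 7 genes whatever their result, and from each context list up to 4 genes of smallest adjusted p are named, except 1 that is not reported here. Alternatives changed the pseudocount, filter, scaling, trend, replicate block and libraries.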

Additional observations from a re-analysis of the deposited data

Results flagged for a closer look

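Within groups of 4, a library was marked where its gap to the nearest other library exceeded Dixon's 95% critical value. Of 108 groups of values examined, 3 were marked, and chance alone marks about 1 in 20. Nsdhl in HK replicate 1 was 38.3 TPM, against 85.6 to 93.7 TPM in the other HK libraries. Sc5d in H replicate 1 was 98.2 TPM, against 161 to 172 TPM in the other H libraries. Ebp in N replicate 2 was 190.2 TPM, against 149.8 to 155.4 TPM in the other N libraries.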

How the results depend on the processing

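TPM keeps no depth, so precision rests on 4 libraries a group. Against N, 21 genes passed in HK livers (16 to 22 without any 1 library), 9 in HC livers (1 to 11) and 13 in H livers (3 to 14), and 4 passed in HK against HC livers (0 to 7). With no filter on low values, which tests more genes, these were 17, 0, 3 and 0. Of all genes, 254, 3, 29 and 230 were then higher. The H count was 3 without the libraries over 33%, where 14 of all genes were higher. The HK against HC count was 1 in a fit over all 16 libraries, 0 with quantile normalization, 1 after rescaling and 1 with no trend, and the cause was not tested. Replicate numbers were not taken to pair the libraries. Same-numbered deviations correlated over 0.1 in at most 2 of 4 pairs of a comparison, and at most at 0.386 (HC and H livers). With so few libraries this cannot exclude pairing. With a replicate block, 21 genes passed in HK livers, 14 in HC livers and 8 in H livers against N, and 0 in HK against HC livers. Of all genes, 313, 87, 23 and 147 were higher with that block. No gene passed in HK or HC against H livers under any alternative run. Of 2718 single-gene results under alternatives, 2493 stayed on the same side of the threshold, 195 no longer passed, 30 newly passed and none that passed changed sign.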
